A study of Carassius auratus with 5 samples.

Results

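Antioxidant and detoxification enzymes were represented by 61 of the 8101 cDNA clones on the array, spotted in duplicate as 122 of 17328 spots. The clones were chosen by name alone: each description contained superoxide dismutase, peroxiredoxin, thioredoxin, glutaredoxin, glutathione, catalase, metallothionein, selenoprotein, cytochrome P450, glucuronosyl or sulfotransferase. No clone was found for 3 of these names, catalase, glutaredoxin and metallothionein, and 1 clone of cytochrome P450 aromatase (03n04) was left out because aromatase is the target of the drug. The 61 clones carried 34 gene names, 13 of which were represented by several clones. All 61 passed the filter on dim clones, and each had a value on all 5 arrays.

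The study measured RNA from the telencephalon, the front part of the forebrain, of sexually mature female goldfish (Carassius auratus). Each of 5 two-channel arrays, named replicates 1 to 5 here, compared an independent group of exposed fish, kept in water with 50 µg/L fadrozole and labelled with Cy3, with 1 common pool of fish in untreated water, labelled with Cy5. Fadrozole inhibits aromatase, which converts androgens to estrogens and is highly expressed in the fish forebrain. The exposure time, the number of fish in a group and the number of fish in the pool were not given in the sources used here. The dyes ran in the same orientation on all 5 arrays, so that an effect of dye and an effect of fadrozole cannot be told apart for any clone. The pool of unexposed fish is 1 control sample, and its own spread is in none of the tests.

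These enzymes act as successive lines of defence against reactive molecules. Superoxide dismutases turn superoxide into hydrogen peroxide, which peroxiredoxins and glutathione peroxidases then reduce with electrons from thioredoxin or glutathione. Some glutathione peroxidases, and the selenoproteins P, T and W, carry selenium as selenocysteine. Drugs, steroids and other lipophilic compounds are oxidised by cytochromes P450 and then joined to glutathione, glucuronic acid or sulfate, which makes them easier to excrete; neurons and glia depend on these systems because the brain uses much oxygen and holds much unsaturated lipid.

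No antioxidant or detoxification clone passed the test for a difference between exposed and unexposed fish. limma called 0 of the 61 clones at an adjusted p under 0.05, where the same fit called 163 of 8080 tested clones, or 2.02%. By direction, 0.408% of all tested clones were called higher and 1.61% lower, against 0 of the 61 in either direction. The smallest adjusted p among the 61 was 0.170, for a class alpha glutathione S-transferase. At an unadjusted p under 0.05 there were 5 of the 61 clones, or 8.20%, against 14.3% of all tested clones and 9.92% of those outside source plates 02 and 04, which held 128 of the 163 called clones and none of these 61. The other plates, which held all 61, had 35 called clones among 7312 tested. A plain one-sample test, in place of limma's moderated one, likewise called 0 of the 61 after adjustment and had 4 at an unadjusted p under 0.05. The 5 clones in limma's fit were all higher in the exposed fish, and they encode a manganese superoxide dismutase, 2 glutathione S-transferases, lactoylglutathione lyase and selenoprotein W.

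The log2 ratios of fadrozole over control were small throughout. Clone means ran from -0.19 to 0.31 with a median of 0.04, beside a median of 0.00 over all tested clones. Of the 61 means, 34 were above 0 and 27 below. The median over the 61 clones was -0.01 on replicate 1, 0.06 on replicate 2, 0.00 on replicates 3 and 4, and 0.07 on replicate 5. Each clone varied between arrays about as much as others did, with a median SD of 0.18 beside 0.20 over all tested clones. The ratio had the same sign on all 5 arrays for 7 of the 61 clones, or 11.5%, against 14.8% of all tested clones.

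**Figure D1:**
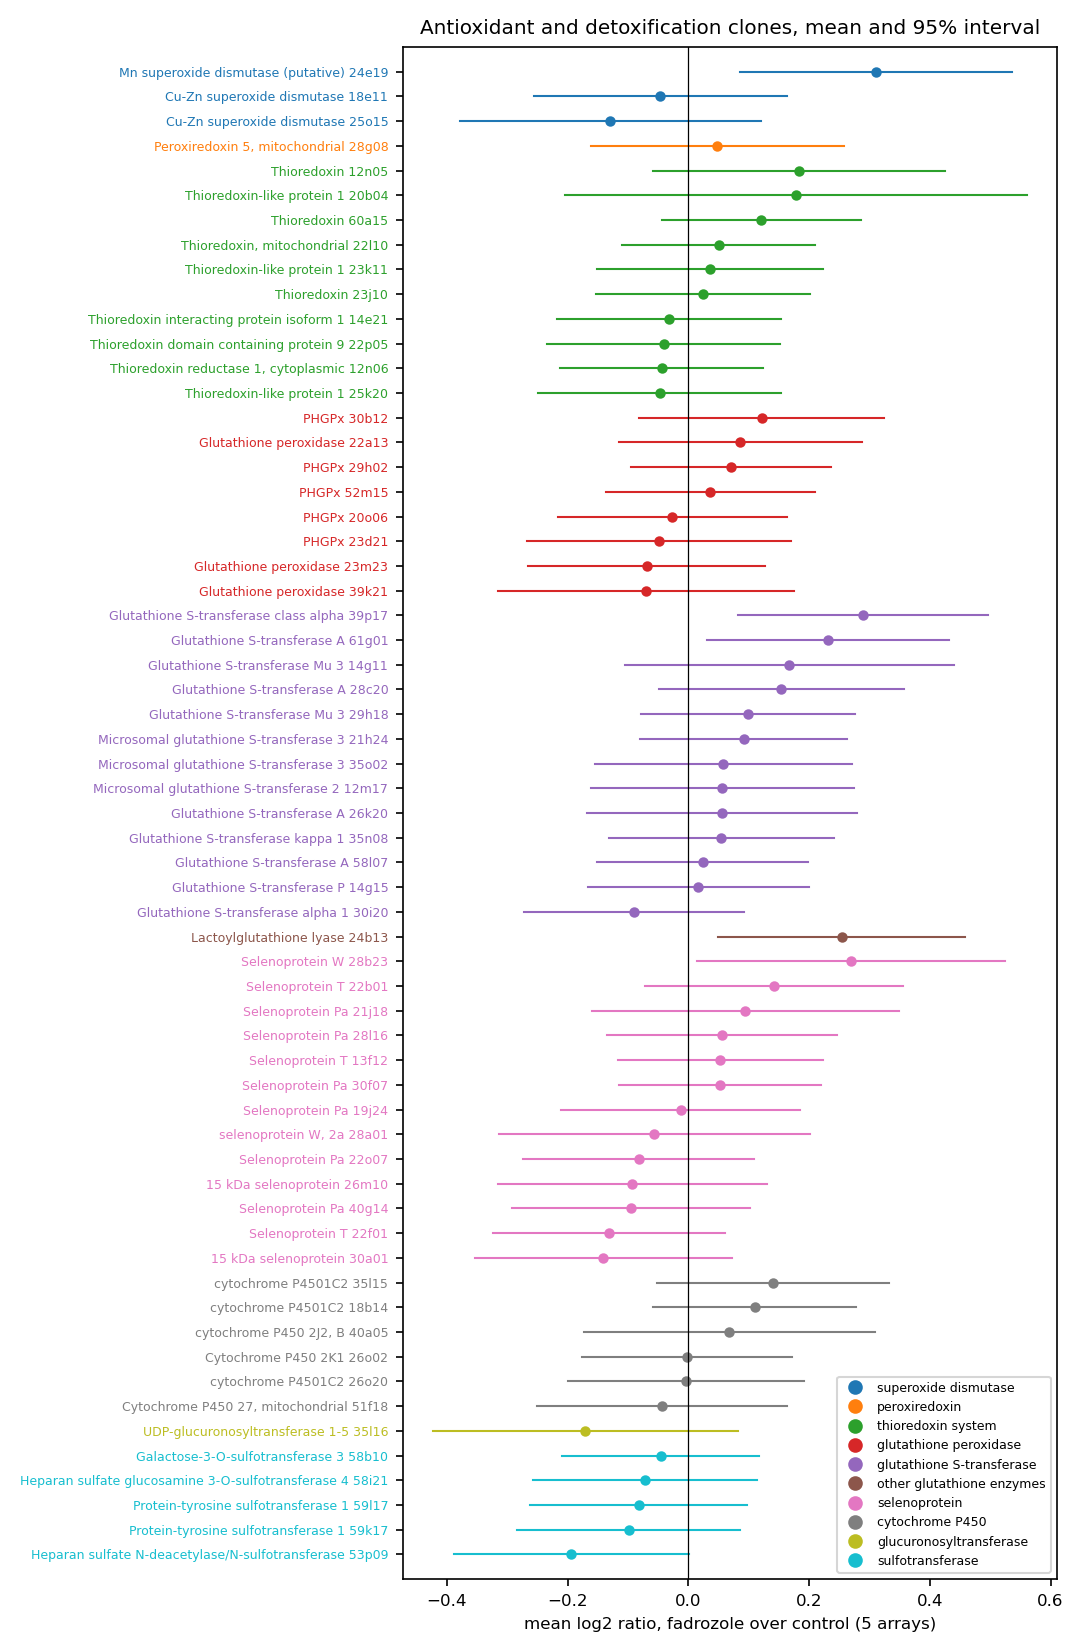
Mean log2 ratio of fadrozole over control (x axis) for each of the 61 clones (y axis, grouped and coloured by family); points are means over 5 arrays and lines are 95% intervals from limma. The means lie between -0.19 and 0.31, and all but 5 of the 61 intervals include 0.

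The precision of these values sets what could have been seen. The 95% interval of every one of the 61 clones lay within a 1.5-fold difference in either direction, with a median of 0.20 from mean to bound on the log2 scale. The background correction adds a constant to both channels, which pulls the ratios of dim clones towards 0. With plain background subtraction, which adds none, that median was 0.29, and 52 of the 61 intervals lay within 1.5-fold and all 61 within 2-fold. However, the fadrozole channel of 20 clones and the control channel of 31 exceeded the 95th percentile of empty and buffer spots on no array. For such clones a narrow interval does not limit how far the transcript could differ.

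Most of the 61 clones were dim, as were most clones on the array. Across arrays the median intensity of all spots was 60.6 to 92.6 scanner units for control and 121 to 380 for fadrozole. Spots with no DNA had medians of 0 to 49.7 and 98.2 to 311 in these channels, so that a dim spot in the fadrozole channel was close to an empty one. The fadrozole channel stood above its local background on all 5 arrays for 9 of the 61 clones, on 1 to 4 arrays for 47 and on no array for 5. It did so on all 5 arrays for 1385 of 8079 tested clones. Both channels exceeded the 95th percentile of the 776 empty and buffer spots on all 5 arrays for 7 of the 61 clones, beside 1108 of 8079 tested clones. In bulk tissue, fewer cells of a type and less RNA per cell cannot be told apart.

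**Figure D2:**
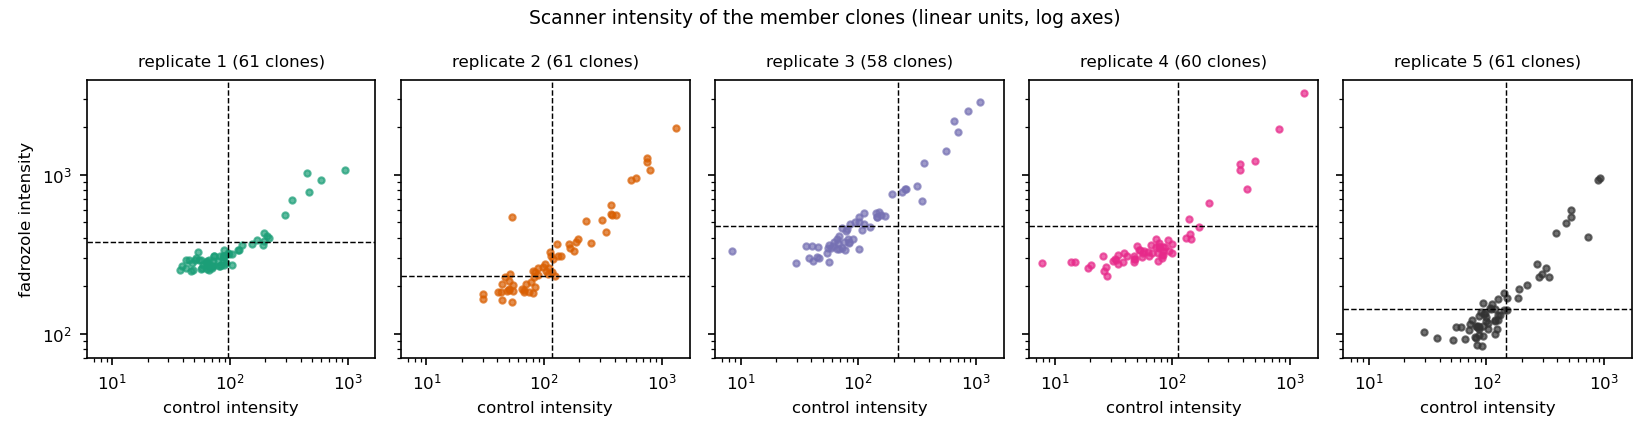
Scanner intensity of the clones in the control channel (x axis, linear units on a log scale) and the fadrozole channel (y axis, likewise) on each array; each point is 1 clone, the mean of its 2 spots, and dashed lines mark the 95th percentile of empty and buffer spots. Clones with an intensity of 0 (3 on replicate 3 and 1 on replicate 4) have no place on the log scale; most points lie below or left of the dashed lines.

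The tissue label was checked against brain markers, and the rest of the array against markers of other cells. Of 6 ependymin clones, an abundant secreted protein of fish brain, 5 exceeded the empty-spot level in both channels on all 5 arrays. The neuron list held 75 clones, 45 of them tubulin. Its mean log2 ratio was -0.14 ± 0.05 (SD over 5 arrays), below 0 on each array. Means were -0.13 for tubulin, -0.21 for 7 SNAP-25, -0.25 for 5 synuclein and -0.08 for 12 stathmin clones. The list matched tubulin of any kind, which is not restricted to neurons, so its mean does not measure neurons alone. It also counted the 6 ependymin clones, although ependymin is secreted and is not a marker of neurons. Their mean was -0.10 ± 0.27, with 0.29 on replicate 4. Of the 75, 6 were called, beside 2.02% of all tested clones. With source plates centred, limma called 0 of all tested clones. The 30 oligodendrocyte clones had a mean of 0.00 ± 0.09, and the 4 hemoglobin clones, none of which exceeded the empty-spot level in both channels on all 5 arrays, a mean of -0.13 ± 0.19. The 8 clones of the radial glia and astroglia list, cells that carry brain aromatase in fish, had a mean of 0.02 ± 0.05. Of these, 3 clones are aromatase, the target of the drug, with a mean of 0.08 ± 0.15, while the 4 glutamine synthetase clones had a mean of -0.02 ± 0.08. The 1 clone of glial fibrillary acidic protein had a mean of -0.04 ± 0.21 and did not exceed the empty-spot level. The muscle list of 68 clones had a mean of 0.04 ± 0.03. Of these, 6 exceeded the empty-spot level in both channels on all 5 arrays, none of them myosin heavy chain or troponin. The 11 troponin clones had a mean of 0.12 ± 0.13. The 3 pituitary clones had a mean of 0.02 ± 0.20. In the liver list the name albumin matched the 23 parvalbumin clones, which left 1 fibrinogen clone, at 0.11 ± 0.26. The part of these cell types and tissues in the values of the 61 clones was not tested.

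Superoxide dismutases were represented by 3 clones of 2 genes. Manganese superoxide dismutase, the mitochondrial enzyme (24e19, described as putative), had the highest mean of the 61 clones. Its log2 ratio was 0.46 on replicate 1, 0.02 on replicate 2, 0.20 on replicate 3, 0.24 on replicate 4 and 0.64 on replicate 5. All 5 arrays were above 0, replicates 1 and 5 most, and replicate 2 showed almost no difference. The mean was 0.31 ± 0.24 (SD, n = 5), a 1.24-fold higher signal, with an unadjusted p of 0.0119 and an adjusted p of 0.175 by limma. Its 95% interval ran from 0.09 to 0.54. The spots were bright: the control channel read 340 to 610 scanner units and the fadrozole channel 541 to 1174 across arrays, above the empty-spot level on all 5. Its 2 spots gave means of 0.33 and 0.29.

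The cytosolic copper-zinc superoxide dismutase, which clears superoxide outside the mitochondrial matrix, had means below 0 in both of its clones, except that 1 of them lay above 0 without background subtraction. Clone 25o15 had a mean of -0.13 ± 0.29 and clone 18e11 a mean of -0.05 ± 0.21. The low mean of 25o15 rested on replicate 1 at -0.59 and replicate 5 at -0.24, since the other 3 arrays lay between 0.02 and 0.11. Clone 18e11 was below 0 on all arrays except replicate 5, at 0.28. The adjusted p values were 0.660 and 0.878, and neither clone's sign held on all arrays. The difference between the manganese and the copper-zinc enzyme was not tested.

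Peroxiredoxin 5, a peroxidase of mitochondria and peroxisomes that draws its electrons from thioredoxin, was the 1 peroxiredoxin clone found (28g08). Its log2 ratio was -0.13 on replicate 1, 0.33 on replicate 2, 0.21 on replicate 3, -0.02 on replicate 4 and -0.14 on replicate 5. The arrays split, with replicates 2 and 3 above 0 and the other 3 below. The mean was 0.05 ± 0.21 (adjusted p = 0.875), and the fadrozole channel stood above its local background on 1 array. Without replicate 2 the mean was -0.02.

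The thioredoxin system had 10 clones, 6 of them with a mean above 0 and 4 below, with a median of 0.03. Other ways of scaling the arrays gave a median of -0.03 to 0.05 for these 10, and it lay below 0 only with each source plate centred on its median. Thioredoxin itself, the small protein that reduces disulfides in other proteins, had 3 clones, all with means above 0, or 2 of 3 with each source plate centred on its median. The brightest, 12n05, had log2 ratios of -0.02 on replicate 1, 0.02 on replicate 2, 0.05 on replicate 3, 0.21 on replicate 4 and 0.66 on replicate 5. Replicates 1 to 3 were close to 0 and replicate 5 stood well above the rest. The mean was 0.18 ± 0.28 (adjusted p = 0.499), and it was 0.06 without replicate 5.

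The other thioredoxin clones were dimmer. Clone 60a15 was above 0 on all 5 arrays, from 0.03 to 0.19, with a mean of 0.12 ± 0.08 (adjusted p = 0.515), but its fadrozole channel stood above its local background on 1 array only. Clone 23j10 had a mean of 0.02 ± 0.13. Averaged over the 3 clones, thioredoxin had a log2 ratio of 0.11 ± 0.07, above 0 on every array. On replicate 1 the average, 0.04, was above 0 through 60a15 alone, at 0.19, beside -0.02 for 12n05 and -0.05 for 23j10. Neither channel of 60a15 exceeded the empty-spot level on any array. Mitochondrial thioredoxin (22l10) had a mean of 0.05 ± 0.05.

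The proteins that act on thioredoxin or resemble it mostly lay near 0. Thioredoxin reductase 1, the selenium-containing enzyme that recharges cytosolic thioredoxin with electrons from NADPH (12n06), had a mean of -0.04 ± 0.09. Thioredoxin interacting protein, which binds and inhibits thioredoxin (14e21), had a mean of -0.03 ± 0.15. Thioredoxin domain containing protein 9 (22p05) had a mean of -0.04 ± 0.17. The 3 clones of thioredoxin-like protein 1 had means of 0.18 ± 0.53 (20b04), 0.04 ± 0.16 (23k11) and -0.05 ± 0.19 (25k20). The first of these rested on replicate 2 alone, at 1.11, and was -0.06 without it. The fadrozole channel of 25k20 stood above its local background on no array, so that no fold is given. The interval of 25k20 from limma ran from -0.25 to 0.15 and included 0 (adjusted p = 0.871).

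Glutathione peroxidases had 8 clones with a median of 0.00, 4 above 0 and 4 below. The largest set was phospholipid hydroperoxide glutathione peroxidase, a selenoenzyme that reduces oxidised membrane lipids, with 5 clones. Its brightest clone, 23d21, had log2 ratios of 0.23 on replicate 1, 0.09 on replicate 2, 0.01 on replicate 3, -0.27 on replicate 4 and -0.30 on replicate 5. Replicates 1 and 2 lay above 0, replicate 3 close to 0, and replicates 4 and 5 below. The mean was -0.05 ± 0.23 (adjusted p = 0.877), and it was 0.01 without replicate 4 and 0.01 without replicate 5. The other 4 clones had means from -0.03 (20o06) to 0.12 (30b12). For 1 of them, 29h02, the fadrozole channel stood above its local background on no array, and no fold is given. The 3 clones described as glutathione peroxidase had means of 0.09 ± 0.19 (22a13), -0.07 ± 0.18 (23m23) and -0.07 ± 0.29 (39k21).

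Glutathione S-transferases, which join glutathione to reactive and foreign compounds, lay mostly above 0. Of 13 clones, 12 had a mean above 0 and 1 below, with a median of 0.06. The share with a mean above 0 was 49.0% of all tested clones and 51.4% of those with a gene description. Both shares include source plates 02 and 04, which held none of the 13. Among all tested clones over the empty-spot level in both channels on all 5 arrays, the share was 49.3%, and 54.5% without these plates. Of the 13, only 14g11 had that signal, and most were dimmer. The share was 48.3% among all tested clones with a fadrozole channel above local background on 0 to 4 arrays, plates 02 and 04 included. The count above 0 was 10 to 12 under 7 other ways of scaling the arrays, with medians of 0.04 to 0.14. None of the 13 was called, and clones of related genes can share sequence and bind the same transcripts, so the 13 are not independent. The highest means were those of a class alpha clone and of 1 of 4 clones described as A, and the lowest that of an alpha 1 clone.

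The class alpha clone (39p17) had log2 ratios of 0.11 on replicate 1, 0.32 on replicate 2, 0.15 on replicate 3, 0.24 on replicate 4 and 0.63 on replicate 5. All arrays were above 0 and replicate 5 stood highest. The mean was 0.29 ± 0.21 (1.22-fold), with an unadjusted p of 0.0115 and an adjusted p of 0.170, the smallest of the 61. The control channel read 120 to 526 scanner units and the fadrozole channel 337 to 751. Both channels exceeded the empty-spot level on 4 of 5 arrays each. Without replicate 5 the mean was 0.21. In contrast, the clone described as glutathione S-transferase alpha 1 (30i20) had a mean of -0.09 ± 0.14. Its fadrozole channel stood above its local background on no array, so that no fold is given. Its interval from limma ran from -0.27 to 0.09 and included 0 (adjusted p = 0.669).

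Glutathione S-transferase A was represented by 4 clones, all with means above 0, or 3 of 4 with no or plain background subtraction and in the authors' deposited values. Clone 61g01 had log2 ratios of 0.25 on replicate 1, 0.52 on replicate 2, 0.08 on replicate 3, 0.04 on replicate 4 and 0.27 on replicate 5. All arrays were above 0, with replicate 2 highest and replicates 3 and 4 lowest. The mean was 0.23 ± 0.19 (1.17-fold), with an unadjusted p of 0.0278 and an adjusted p of 0.260. With print-tip loess the mean was 0.11 and the unadjusted p by limma 0.150. This clone was dim, at 66.4 to 129 scanner units in the control channel, which exceeded the empty-spot level on 1 array. The other clones had means of 0.15 ± 0.20 (28c20), 0.06 ± 0.24 (26k20) and 0.02 ± 0.12 (58l07). The average over the 4 was 0.12 ± 0.14, highest on replicate 2 at 0.34 and below 0 on replicate 4 at -0.04.

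The transferase clone with the highest intensity was of the mu class. Glutathione S-transferase Mu 3 clone 14g11 had log2 ratios of -0.07 on replicate 1, -0.17 on replicate 2, 0.12 on replicate 3, 0.27 on replicate 4 and 0.69 on replicate 5. Replicates 1 and 2 lay below 0, and replicate 5 was far above the others. The mean was 0.17 ± 0.34 (adjusted p = 0.591), and it was 0.04 without replicate 5. The second clone of this gene, 29h18, had a mean of 0.10 ± 0.12.

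The remaining transferases differed little from 0. Microsomal glutathione S-transferases, membrane proteins of another structural family, had means of 0.09 ± 0.11 (type 3, 21h24), 0.06 ± 0.22 (type 3, 35o02) and 0.06 ± 0.23 (type 2, 12m17). The kappa 1 clone (35n08), a mitochondrial and peroxisomal form, had a mean of 0.05 ± 0.15. The P class clone (14g15) had a mean of 0.02 ± 0.14.

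Lactoylglutathione lyase, also called glyoxalase I, uses glutathione to remove methylglyoxal, a by-product of glycolysis. Its clone 24b13 had log2 ratios of 0.00 on replicate 1, 0.08 on replicate 2, 0.34 on replicate 3, 0.41 on replicate 4 and 0.44 on replicate 5. Replicates 3, 4 and 5 lay together well above 0, while replicates 1 and 2 were near 0. The mean was 0.25 ± 0.20 (1.19-fold), with an unadjusted p of 0.0203 and an adjusted p of 0.225. The clone was bright, with a control signal of 292 to 746 scanner units and a fadrozole signal of 499 to 2164. Without replicate 1, which was quantified on another day than the other 4 arrays, the mean was 0.32 (adjusted p = 0.220).

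Selenoproteins had 13 clones, 6 with a mean above 0 and 7 below, with a median of -0.01 that ran from -0.04 with source plates centred to 0.04 without background subtraction. Selenoprotein W, a small protein abundant in muscle and brain, had the highest mean. Its clone 28b23 had log2 ratios of 0.11 on replicate 1, 0.06 on replicate 2, 0.00 on replicate 3, 0.50 on replicate 4 and 0.68 on replicate 5. Replicates 4 and 5 were high, and the other 3 lay close to 0. The mean was 0.27 ± 0.30 (1.21-fold), with an unadjusted p of 0.0409 and an adjusted p of 0.317. Both channels exceeded the empty-spot level on all arrays, with a control signal of 470 to 1324 scanner units and a fadrozole signal of 772 to 3272. Without replicate 5 its mean was 0.17. The clone described as selenoprotein W, 2a (28a01) had a mean of -0.06 ± 0.31, with replicate 1 lowest at -0.53 and replicate 2 highest at 0.27.

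The other selenoproteins showed no common direction. Selenoprotein Pa, a form of the secreted protein that carries selenium between tissues, had 6 clones with means from -0.10 (40g14) to 0.09 (21j18), and their average was 0.00 ± 0.07. Clone 21j18, the brightest of the 6, had log2 ratios of 0.54 on replicate 1 and -0.19 on replicate 5. Selenoprotein T, a protein of the endoplasmic reticulum, had 3 clones that did not lie on the same side of 0, with means of -0.13 ± 0.17 (22f01), 0.14 ± 0.22 (22b01) and 0.05 ± 0.10 (13f12). The 15 kDa selenoprotein, which resides in the endoplasmic reticulum, had means of -0.14 ± 0.22 (30a01) and -0.09 ± 0.24 (26m10). The fadrozole channel of 26m10 stood above its local background on no array, so that no fold is given. The interval of 26m10 from limma ran from -0.32 to 0.13 and included 0 (adjusted p = 0.732).

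**Figure D3:**
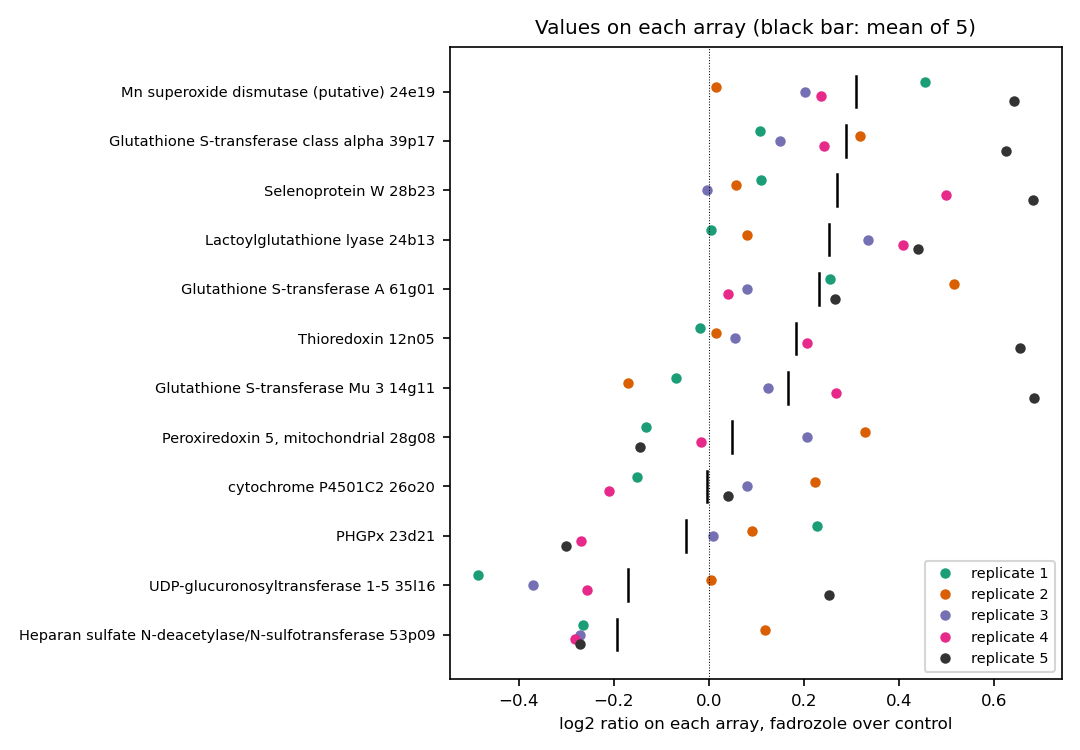
Log2 ratio of fadrozole over control on each array (x axis) for the 5 clones with an unadjusted p under 0.05 and the brightest clone of each family (y axis); coloured points are the 5 arrays and black bars their means. Replicate 5 is the highest array for Mn superoxide dismutase (0.64), class alpha glutathione S-transferase (0.63), selenoprotein W (0.68), thioredoxin (0.66) and glutathione S-transferase Mu 3 (0.69).

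Cytochromes P450, which add oxygen to steroids, fatty acids and drugs, had 6 clones other than aromatase, 3 with a mean above 0 and 3 below. Cytochrome P4501C2, of a family that is induced through the aryl hydrocarbon receptor in fish, had 3 clones. Its brightest clone, 26o20, had log2 ratios of -0.15 on replicate 1, 0.22 on replicate 2, 0.08 on replicate 3, -0.21 on replicate 4 and 0.04 on replicate 5. The arrays lay on both sides of 0, and the mean was 0.00 ± 0.18 (adjusted p = 0.991). The other clones had means of 0.14 ± 0.17 (35l15) and 0.11 ± 0.09 (18b14), the latter with a fadrozole channel above local background on no array, so that no fold is given for it. Without background subtraction 0 of the 3 clones lay above 0 and their median was -0.01, against 0.11 here. The clone described as family 2, subfamily J, polypeptide 2, B (40a05) had a mean of 0.07 ± 0.28. Cytochrome P450 2K1 (26o02) had a mean of 0.00 ± 0.11. Cytochrome P450 27, of a family of mitochondrial sterol and vitamin D hydroxylases (51f18), had a mean of -0.04 ± 0.20.

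The conjugating enzymes other than glutathione S-transferases were few. UDP-glucuronosyltransferase 1-5, a microsomal enzyme that joins glucuronic acid to steroids and drugs (35l16), had log2 ratios of -0.49 on replicate 1, 0.01 on replicate 2, -0.37 on replicate 3, -0.26 on replicate 4 and 0.25 on replicate 5. Replicates 1, 3 and 4 were below 0 and replicate 5 above. The mean was -0.17 ± 0.30 (adjusted p = 0.550). It was -0.09 without replicate 1 and -0.28 without replicate 5, and -0.07 with plain background subtraction and -0.04 in the authors' deposited values. Its 2 spots did not match, with means of -0.42 and 0.08, and the fadrozole channel stood above its local background on 2 arrays.

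Sulfotransferases had 5 clones, all with means below 0 and a median of -0.08. Among all tested clones, 4122 of 8079 had a mean below 0. All 5 stayed below 0 under other scalings, except that 1 lay above 0 without background subtraction. None of the 5 was called, and 2 of them are clones of 1 gene from the same source plate. By their names these 5 act on heparan sulfate, galactose or protein tyrosine, not on small drugs or steroids. The lowest of the 61 means was that of heparan sulfate N-deacetylase/N-sulfotransferase, which modifies the sugar chains of proteoglycans (53p09). Its log2 ratio was -0.26 on replicate 1, 0.12 on replicate 2, -0.27 on replicate 3, -0.28 on replicate 4 and -0.27 on replicate 5. Replicate 2 stood apart above 0 and the other 4 lay close together. The mean was -0.19 ± 0.17 (1.14-fold lower, unadjusted p = 0.0505, adjusted p = 0.349), and both channels exceeded the empty-spot level on all arrays. Without replicate 2 the mean was -0.27 (adjusted p = 0.198).

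The other sulfotransferases were dim. Protein-tyrosine sulfotransferase 1 had means of -0.10 ± 0.15 (59k17) and -0.08 ± 0.13 (59l17). Heparan sulfate glucosamine 3-O-sulfotransferase 4 (58i21) had a mean of -0.07 ± 0.15. Galactose-3-O-sulfotransferase 3 (58b10) had a mean of -0.05 ± 0.07.

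**Figure D4:**
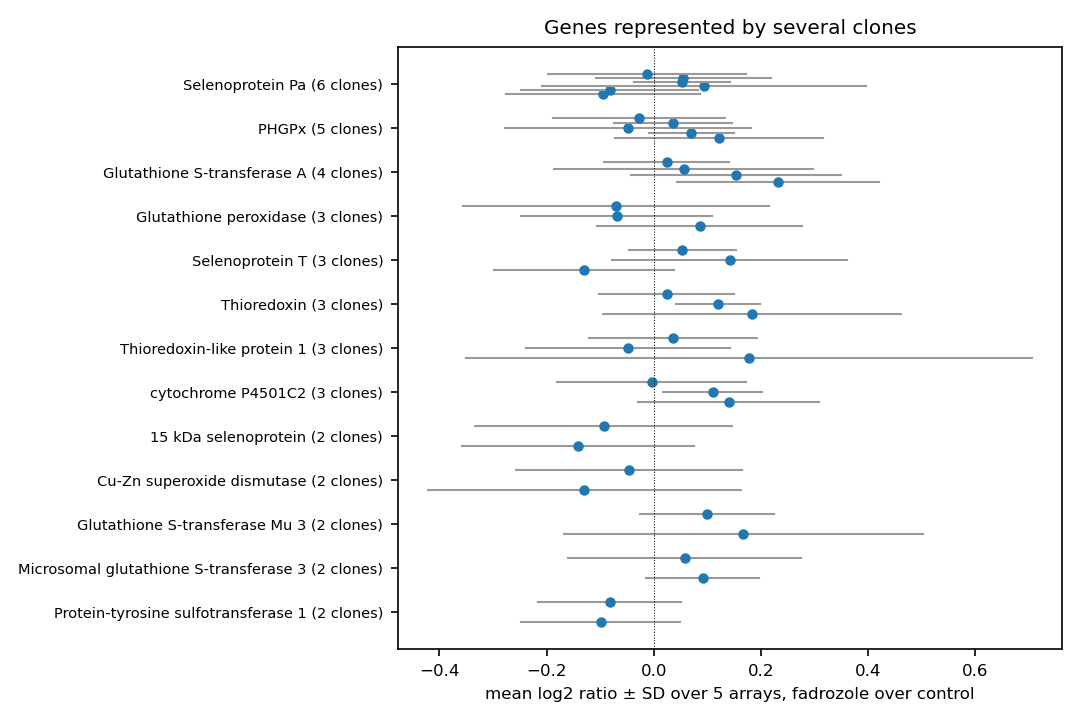
Mean log2 ratio of fadrozole over control (x axis) for each clone of the 13 genes represented by several clones (y axis); points are clone means and lines are ± SD over 5 arrays. All 4 glutathione S-transferase A clones and all 3 thioredoxin clones have means above 0 (3 of 4 without background subtraction and 2 of 3 with source plates centred), both 15 kDa selenoprotein clones below, and the 3 selenoprotein T clones lie on both sides.

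The arrays differed in how the clones with a clear signal read. For the 7 clones that exceeded the empty-spot level in both channels on every array, the median log2 ratio was 0.00 on replicate 1, 0.06 on replicate 2, 0.05 on replicate 3, 0.24 on replicate 4 and 0.64 on replicate 5. Over the 1108 tested clones with that signal, the median on replicate 5 was -0.01, and over the 985 of them outside plates 02 and 04, which hold none of the 61, it was 0.02. Among all 61 clones, replicate 2 was the highest array for 20, or 32.8%, against 19.3% of all tested clones. Replicate 5 was the highest for 18, or 29.5%, against 22.4%. No test was run on these differences. Correlations of the log2 ratios between arrays, across the 61 clones, ran from -0.22 to 0.32 as a description, where clones share array and source plate, beside 0.11 to 0.31 over all tested clones.

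A further 57 clones were chosen by names of related functions, such as iron storage, NADPH supply, aldehyde removal and methyl transfer. None of the 57 was called, 7 were higher and 1 lower at an unadjusted p under 0.05, which is 14.0% against 14.3% of all tested clones and 9.92% of those outside plates 02 and 04, and the median log2 ratio was 0.04. The name patterns also matched 19 clones of respiratory complex I subunits or of other methyltransferases, most of them complex I. The remaining 38 still held some clones of other function, such as glucosamine 6-phosphate N-acetyltransferase (22h22). Of these 38, none was called, 4 were higher and 1 lower at an unadjusted p under 0.05, or 13.2%, and the median was 0.02. Guanidinoacetate N-methyltransferase, which makes creatine (28c12), had the smallest p, at 0.45 ± 0.32 (adjusted p = 0.0914 by limma). A second clone of this gene, 13e19, had a mean of -0.07 ± 0.12. Ferritin, lower subunit (35j18), part of the shell that stores iron, had a mean of 0.36 ± 0.26 (adjusted p = 0.128). Both were above 0 on all 5 arrays and highest on replicate 5, at 0.94 and 0.82. On the lower side, transferrin variant A, the iron carrier of plasma (14n16), had a mean of -0.27 ± 0.26 (adjusted p = 0.254). This clone was dim: its fadrozole channel stood above local background on 2 arrays, and each channel exceeded the empty-spot level on 1. The MLRQ subunit of NADH-ubiquinone oxidoreductase (52c11), one of the complex I matches, had a mean of -0.15 ± 0.14 (adjusted p = 0.448), while 2 other clones of that subunit had means of 0.21 ± 0.31 (12n09) and -0.35 ± 0.94 (40b09).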

How the data were processed

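RNA was measured on 5 two-colour cDNA arrays of 17328 spots. The deposited scanner intensity values are linear units, 1 per spot and channel with its local background, not background subtracted per the file headers. The authors also deposited processed values that behave as log2-like ratios. Their log base and scaling are not stated. Spot by spot, they correlated at -0.996 to -1.00 with log2 ratios made from the intensities (slopes -0.73 to -0.81). Their direction is thus control over fadrozole, which was reversed. Their column medians were -0.0085, -0.0043, -0.039, -0.023 and 0.036.

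Background correction used normexp (offset 50), and loess (span 0.3) normalized each array. The software was R 4.3.3 with limma 3.58.1 and statmod 1.5.0. Spots marked as ignored by the scanner software (0 to 29 per array, 2 of them on the clones described here, on replicate 4) were dropped, and duplicate spots were averaged. Testing required a signal over local background (by 2 background SDs, in 1 channel or both) in a share of 0.5 or more of the usable spots on 3 or more arrays, which kept 8080 clones. The mean log2 ratio was compared with 0 in limma's two-sided moderated test, and p values were adjusted by Benjamini-Hochberg over all 8080 clones, with 4 residual and 5.24 prior degrees of freedom. No correction for source plate was made in this test. Intervals are 95% intervals from the same fit. The fit was tried on simulated data whose fadrozole signal was built from the control signal. It called 86 of 100 clones changed 1.5-fold and 8 of 7880 unchanged clones. Those data lack the dim fadrozole channel of the real arrays, so these counts do not apply to dim clones. Their noise was of a set size, with no effect of dye on single clones and none of source plate. The counts therefore do not give the power or the error rate of the test on the real arrays. The level of empty spots is the 95th percentile of 776 empty and buffer spots on each array. Where the fadrozole channel was not above its local background on any array, the measured mean log2 ratio is printed without a fold. The 95% interval of each such clone included 0.

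The clones and lists were chosen with earlier results of these data known, so no p was adjusted over these clones alone and no list was tested. Per-array values are given for clones with an unadjusted p under 0.05 and for the clone of highest intensity in each family. Others are named by their means, and arrays described for 25o15, 18e11, 28a01 and 21j18 were chosen after their values were seen. Further clones were named where called or among the 2 of smallest p in each direction, and 13e19, 12n09 and 40b09, other clones of genes so named, were added after their values were seen. All arrays were scanned on 1 day, and replicate 1 was quantified on another day than replicates 2 to 5. The number of arrays limits the precision. The spot names carry no sequence or position, so none is given.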

Additional observations from a re-analysis of the deposited data

Results flagged for a closer look

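For 5 of the 61 clones, or 8.20%, 1 array lay far from the other 4, measured by its gap to the nearest array as a share of the clone's whole range. The same measure picked out 703 of 8079 tested clones, or 8.70%, and chance alone would pick out about 5% of clones if values were normally spread.

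The log2 ratio of thioredoxin-like protein 1 clone 20b04 was 1.11 on replicate 2, where the other arrays lay between -0.16 and 0.02. Its 2 spots on that array gave 2.13 and 0.10. A second clone of the same gene, 25k20, was at 0.282 on replicate 1, with the other arrays between -0.17 and -0.05. Heparan sulfate N-deacetylase/N-sulfotransferase clone 53p09 was at 0.118 on replicate 2, with the other arrays between -0.28 and -0.26. Microsomal glutathione S-transferase 3 clone 21h24 was at 0.272 on replicate 5, with the other arrays between 0.00 and 0.08, and its spots there gave 0.51 and 0.03. Mitochondrial thioredoxin clone 22l10 was at -0.0289 on replicate 3, with the other arrays between 0.06 and 0.09. Without these arrays the means were -0.06, -0.13, -0.27, 0.05 and 0.07, and the adjusted p values by limma were 0.829, 0.555, 0.198, 0.877 and 0.785, in the order given.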

How the results depend on the processing

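The count of antioxidant and detoxification clones called was 0 under all 21 alternatives that gave a count, with a smallest adjusted p of 0.0748 where clones had to stand above background in both channels, which left 24 of the 61. The median log2 ratio of the 61 clones moved from 0.036 to -0.0079 with source plates centred and otherwise ran from 0.0067 to 0.055. Among the 12 clones with values given by array, 9 kept their sign in every alternative that gave them a value. UDP-glucuronosyltransferase 1-5 35l16, 1 of the 9, had none with the filter on both channels. Phospholipid hydroperoxide glutathione peroxidase 23d21 turned to 0.058 without background subtraction, and ran from -0.12 to 0.014 with each array left out, above 0 without replicates 4 and 5. Cytochrome P4501C2 26o20 turned to 0.037 with plain subtraction, 0.0064 with scale normalization, 0.041 in the authors' deposited values and 0.013 with array weights, and ran from -0.061 to 0.048 with each array left out, above 0 without replicates 1 and 4. Peroxiredoxin 5 28g08 turned to -0.022 without replicate 2 and reached 0.096 without replicate 5. The causes were not tested.

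The count over all tested clones, 163, depended far more on the processing. It was 0 without background subtraction, 0 with plain subtraction, 0 in the authors' values, 0 with plates centred, 0 without plates 02 and 04 and 0 in the plain one-sample test. It was 92 with scale normalization, 357 with the filter on both channels, which tested 3197 clones, and 404 with duplicate spots kept apart. Leaving out each array in turn gave 0 to 174: 1 without replicate 1, 0 without replicate 2, 0 without replicate 3, 174 without replicate 4 and 99 without replicate 5. The further list of 57 clones had 1 call with the filter on both channels and 2 with duplicate spots kept apart. Of the alternatives chosen after seeing the data, dropping wrong matches left that list at 0 calls, and the median of the 61 clones was 0.049 without sulfotransferases and 0.019 with clones of 1 gene averaged. No paired analysis was possible because each array holds 1 exposed group against the same pool. The fadrozole channel, above local background on all 5 arrays for 9 of 61 clones and 1385 of 8079 tested clones, limits what could be detected.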
